A study of Mus musculus with 6 samples.

Results

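The macrophage and phagocyte receptor genes described here are 33 genes chosen by name: Fc receptors, scavenger receptors, lectins, receptors for dying cells, lysosomal proteins, oxidase subunits and transcription factors that mark macrophages. All 33 were measured, of 18193 genes with a probe set (a group of array probes for 1 transcript) that the platform annotation ties to a single gene. They have 63 such probe sets, and each gene is represented by the one with the highest mean. The samples were callus, the repair tissue at a bone break, from mice without functional Cyp24a1, the enzyme that breaks down active vitamin D, and from littermates with 1 disrupted copy. The null group, Cyp24a1 (-/-), and the control group, Cyp24a1 (+/-), had 3 arrays each. The mice were labelled as 12 weeks old, were of a C57BL6J x 129SV mixed background, and had a tibial osteotomy stabilised by a rod in the marrow cavity 14 days before the tissue was taken. No wild-type group was analysed here, so the controls also lack 1 copy. The labels do not state that every array came from a different mouse, and the p-values therefore cover only the spread seen between these 6 samples. Affymetrix mouse expression arrays gave 1 log2 value per probe set, and levels of different genes are not compared because probe sets differ in brightness.

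Macrophages engulf pathogens, dead cells and matrix debris and digest them in lysosomes. Fc receptors bind antibody-coated particles, scavenger receptors take up modified proteins and lipoproteins, and TAM-family kinases and phosphatidylserine receptors recognise apoptotic cells. In bone repair, macrophages resident in the tissue and those derived from blood monocytes clear the haematoma and the cartilage template, and osteoclasts arise from the same lineage. Because callus is a mixed tissue measured in bulk, more cells of a type and more RNA per cell cannot be told apart in any value below.

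The array medians lay between 4.55 and 4.59, and Pearson's r between arrays, across probe sets, ran from 0.970 to 0.991. Markers of bone, cartilage and muscle were read beside the tissue label. Col1a1, the main bone collagen, lay between 13.57 and 14.28, and the cartilage collagen Col2a1 between 7.04 and 9.76. Matn1, another cartilage marker, lay only between 2.18 and 2.67, so not every cartilage marker bore out the label. Acta1, an actin of skeletal muscle, lay between 14.40 and 14.49, which shows muscle in the samples and is no check of callus. Cyp24a1 itself could not serve as a check of the genotypes. The group means of its 2 probe sets (3.36 and 3.27 in null callus, 2.90 and 3.34 in controls) lay below 3.52, the highest value of sex-linked transcripts on arrays that lacked them, and where these probes lie relative to the disrupted part is not stated. Single values reached 3.65 on null replicate 1 and 3.69 on heterozygous replicate 2. On the first probe set all null values lay above all heterozygous values, with an unadjusted p of 0.033 in limma (adjusted p = 0.999). Genes of bone marrow stood apart on 2 arrays, null replicate 1 and heterozygous replicate 3. With every gene set relative to its own mean, 13 neutrophil genes averaged -2.83 on the first and -3.34 on the second of these, against 1.33 to 1.86 elsewhere, and 7 erythroid genes gave -2.86 and -2.37 against 0.80 to 1.63. These 2 arrays, 1 in each group, are called marrow-poor below, and results are given with and without them. Null replicate 1 and heterozygous replicate 1 had high Xist, the transcript of the inactive X chromosome, and low Y-linked transcripts, and the other 4 arrays had the reverse, so each group held tissue from mice of both sexes.

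Every one of the 33 genes had a higher mean in null callus than in controls. The differences ran from 0.15 for Gpnmb to 1.37 for Marco, with a median of 0.47, against a median of -0.0017 over all genes, of which 49.6% were higher in null callus. The members were chosen with results of these arrays known, so this contrast with all genes is a description and no test. After Benjamini-Hochberg adjustment in limma no member reached 0.05 (lowest adjusted p = 0.999), nor did any other probe set (0% of 45037 called, with 1660 at an unadjusted p under 0.05). At an unadjusted p under 0.05 in limma stood 6 of the 33, or 18.2%, all higher in null callus (Cybb, Cd53, Mrc1, Cd163, Maf and Lyz2). In that direction stood 1.63% of all probe sets and 2.06% of all genes with 1 probe set each. In either direction it was 817 of the 18193 genes. In 6 genes (Cybb, Cd53, Mrc1, Maf, Spi1 and Marco) all 3 null values lay above all 3 heterozygous values, against 3.57% of all probe sets and 4.14% of all genes. This holds for the probe set used. On every other probe set of Cybb, Cd53, Maf and Marco the groups overlapped, while Mrc1 and Spi1 have 1 each. For 3 against 3 arrays the two-sided exact permutation p of a gene without overlap is 0.1, the smallest that this design allows. The 33 genes are not independent of each other, since many of them are transcribed in the same cells and all were read on the same 6 arrays.

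Single arrays moved the shared shift in size and, for some genes, in direction. Null replicate 1 had the highest value in 22 of the 33 genes, null replicate 3 in 7, null replicate 2 in 3 and heterozygous replicate 3 in 1. The lowest value fell on heterozygous replicate 2 in 20 genes. Over all genes, 25.0% had their highest value on null replicate 1 and 17.6% their lowest on heterozygous replicate 2. Without null replicate 1, 25 of the 33 genes were higher in null callus and the median difference was 0.27. It was 0.31 without heterozygous replicate 2, with 28 genes higher, and 0.72 without null replicate 2, with 32 higher. Without both marrow-poor arrays, all 33 genes were still higher in null callus, with a median of 0.39. Without both arrays with high Xist, 25 were higher and the median was 0.32.

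**Figure D1:**
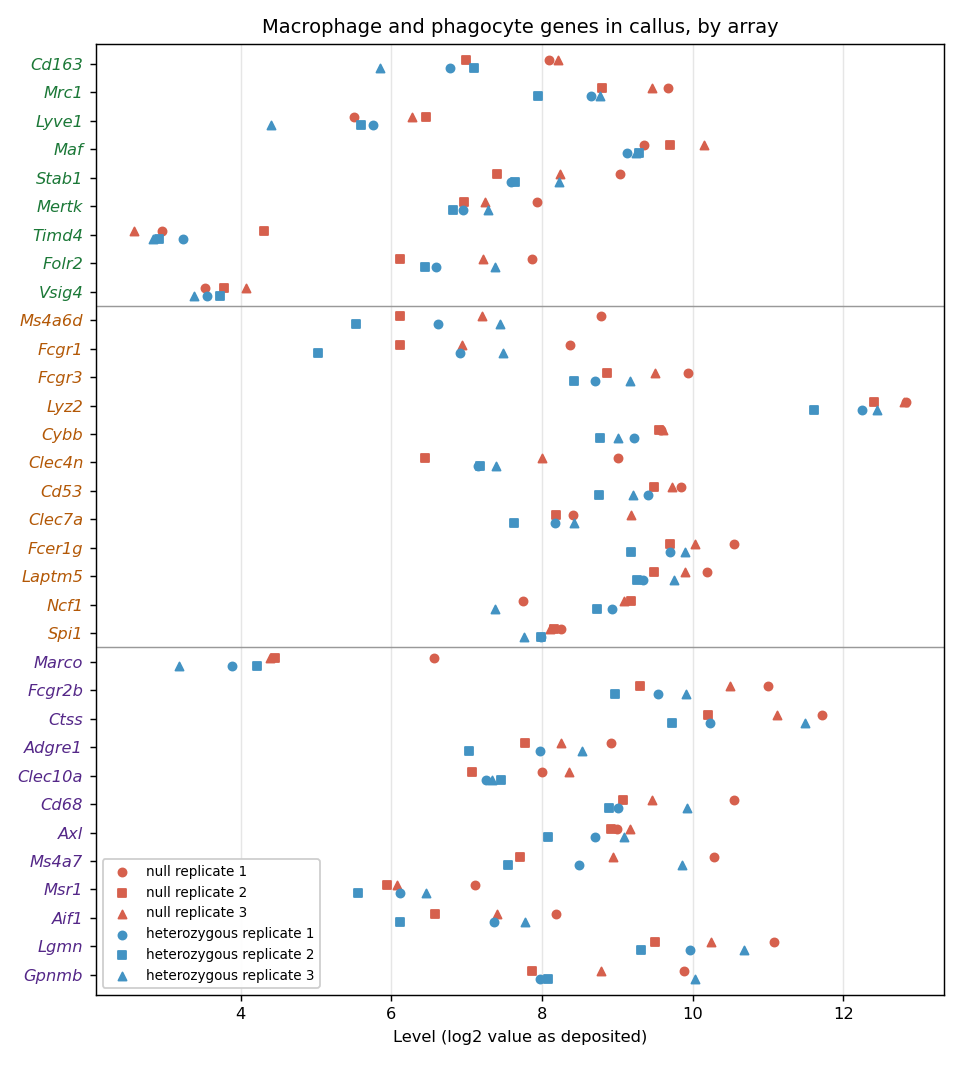
Levels of the 33 genes (rows) on each array, as deposited log2 values on the horizontal axis. Red symbols are null and blue are heterozygous arrays, circles, squares and triangles are replicates 1 to 3, and gene names are green for resident, orange for shared and purple for other macrophage genes. Null replicate 1 has the highest value in 22 rows and heterozygous replicate 2 the lowest in 20.

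Among the transcription factors, Spi1 encodes PU.1, which sets up the myeloid lineage, and Maf encodes c-Maf, a regulator of resident macrophages. Spi1 stood at 8.25, 8.16 and 8.11 on the null arrays and at 7.99, 7.99 and 7.76 on the heterozygous arrays (replicates 1 to 3, here and below). The groups did not overlap, and the difference of 0.26 (SE 0.11) had a 95% interval of -0.012 to 0.53. Maf was at 9.36, 9.70 and 10.16 in null callus and at 9.13, 9.28 and 9.25 in heterozygous callus, without overlap. Its difference was 0.52 (SE 0.21, 95% interval 0.021 to 1.01), or 1.43-fold, and 5 of its 6 probe sets were higher in null callus. On each of the other probe sets of Maf the groups overlapped. Leaving out null replicate 3 brought the difference of the one used to 0.31. Spi1 was the least variable member, with 0.49 between its highest and lowest array, and it differed by 0.14 without both marrow-poor arrays.

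The NADPH oxidase makes the superoxide that phagocytes use against engulfed microbes. Its membrane subunit Cybb had values of 9.59, 9.56 and 9.61 in the null group and of 9.22, 8.77 and 9.02 in controls. On the probe set used, the 3 null values lay close together and above every heterozygous value. Group means were 9.58 ± 0.024 and 9.001 ± 0.225 (SD, n = 3 each), and the difference was 0.58 (SE 0.14, 95% interval 0.26 to 0.91), with all 3 probe sets higher in null callus. On the other probe sets of Cybb the groups overlapped, with SDs of 0.33 and 0.34 in null callus. Of the 33 genes, Cybb had the lowest unadjusted p. Leaving out any single array left its difference between 0.47 and 0.69. The cytosolic subunit Ncf1, which neutrophils carry in abundance, was at 7.75, 9.18 and 9.08 in null callus and at 8.93, 8.74 and 7.38 in heterozygous callus. Its low values fell on the marrow-poor arrays, and its difference of 0.32 (SE 0.53) was -0.16 without heterozygous replicate 3.

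Fc receptors bind the constant part of antibodies. Fcer1g, the chain that carries the activating signal of Fcgr1 and Fcgr3, was at 10.55, 9.70 and 10.04 in null callus and at 9.71, 9.18 and 9.90 in controls. The groups overlapped, and the difference was 0.50 (SE 0.27, 95% interval -0.15 to 1.15). Fcgr3, a low-affinity activating receptor, was at 9.94, 8.87 and 9.50 against 8.71, 8.43 and 9.17, a difference of 0.67 (SE 0.31). The inhibitory receptor Fcgr2b was at 11.01, 9.31 and 10.50 against 9.55, 8.97 and 9.92, a difference of 0.79 (SE 0.46). All 5 of its probe sets were higher in null callus, but 1 of them (group means 2.34 and 2.22) lay below 3.52, the level of absent sex-linked transcripts. For the high-affinity receptor Fcgr1 the values were 8.38, 6.12 and 6.93 against 6.91, 5.03 and 7.49. Its difference of 0.67 (SE 0.79) was -0.056 without heterozygous replicate 2. In all 4 genes null replicate 1 was highest and heterozygous replicate 2 lowest. With null replicate 1 left out, Fcer1g differed by 0.27 and Fcgr3 and Fcgr2b by 0.42 each.

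Scavenger and endocytic receptors held the 3 largest differences of the 33 genes. Mrc1, the mannose receptor, had values of 9.68, 8.80 and 9.46 in null callus and of 8.65, 7.94 and 8.77 in controls. The groups came close without overlapping, and the difference was 0.86 (SE 0.30, 95% interval 0.13 to 1.59), or 1.82-fold. Cd163, which takes up haemoglobin-haptoglobin complexes, was at 8.09, 6.996 and 8.21 against 6.78, 7.09 and 5.85. Here null replicate 2 lay below heterozygous replicate 2, and the difference was 1.19 (SE 0.43, 95% interval 0.16 to 2.22). Marco, a receptor for bacteria and particles, was at 6.57, 4.45 and 4.39 against 3.88, 4.22 and 3.19. The groups did not overlap, but the difference of 1.37 (SE 0.62) was 0.66 without null replicate 1, which stood far above the other 5 arrays. Its second probe set differed by 0.32, with overlap of the groups. Its value on heterozygous replicate 3 was no higher than those of silent sex-linked transcripts (up to 3.52), so the size of its difference is uncertain. Between the marrow-poor arrays alone, null replicate 1 exceeded heterozygous replicate 3 by 2.24 for Cd163. Without both of those arrays the differences were 0.83 for Mrc1, 0.67 for Cd163 and 0.37 for Marco.

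Lyve1 and Folr2, a hyaluronan receptor and a folate receptor of resident macrophages, differed from each other in how they varied. Lyve1 was at 5.50, 6.45 and 6.28 in null callus and at 5.75, 5.59 and 4.41 in heterozygous callus, differing by 0.83 (SE 0.41), and was lower on both marrow-poor arrays than on the other arrays of its group. Without heterozygous replicate 3 its difference was 0.40. Lymphatic endothelium also carries Lyve1. Of its 3 markers measured, Prox1 lay between 2.38 and 3.30, within the range of silent transcripts, and differed by -0.29 (SE 0.22). Flt4 lay between 6.37 and 7.25 and Pdpn between 7.94 and 9.60, and they differed by 0.11 (SE 0.23) and 0.18 (SE 0.45). The part of these cells in the result was not tested. Folr2 was at 7.87, 6.11 and 7.22 against 6.60, 6.45 and 7.38, a difference of 0.26 (SE 0.47) that became -0.14 without null replicate 1. Msr1, the class A scavenger receptor, and Stab1, a clearance receptor also found on sinusoidal endothelium, differed by 0.33 (SE 0.37) and 0.41 (SE 0.41). Both had their highest value on null replicate 1, without which the differences were -0.035 and 0.0054.

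Of the 6 genes without overlap, Mrc1, Marco, Cd53 and Cybb have a promoter sequence in the RefSeq table used here (GRCm38.p6). Their 250 bases before the transcription start are shown to set these promoters beside the purine-rich core GAGGAA that PU.1, the protein of Spi1, is known to bind. The sequences run 5′ to 3′ on the strand of the gene and end just before the start. Capitals mark GAGGAA, or TTCCTC where the core lies on the opposite strand. They lie at chr2:14229164-14229413 (plus strand), chr1:120505025-120505274 (minus strand), chr3:106790150-106790399 (minus strand) and chrX:9469325-9469574 (minus strand).
Mrc1: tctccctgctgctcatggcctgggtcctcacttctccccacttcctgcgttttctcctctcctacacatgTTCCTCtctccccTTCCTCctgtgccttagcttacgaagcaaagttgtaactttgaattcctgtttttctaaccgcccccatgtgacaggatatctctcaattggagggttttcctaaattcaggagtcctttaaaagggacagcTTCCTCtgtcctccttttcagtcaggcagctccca
Marco: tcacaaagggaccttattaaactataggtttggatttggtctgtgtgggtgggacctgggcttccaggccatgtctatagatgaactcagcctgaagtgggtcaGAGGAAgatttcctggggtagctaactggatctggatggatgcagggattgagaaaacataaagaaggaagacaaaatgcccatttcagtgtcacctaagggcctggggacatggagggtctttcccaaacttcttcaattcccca
Cd53: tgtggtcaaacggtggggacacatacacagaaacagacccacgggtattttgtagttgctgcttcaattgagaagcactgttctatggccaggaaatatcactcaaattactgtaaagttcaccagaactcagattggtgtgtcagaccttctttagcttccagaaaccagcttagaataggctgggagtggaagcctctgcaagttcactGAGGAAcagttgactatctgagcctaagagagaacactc
Cybb: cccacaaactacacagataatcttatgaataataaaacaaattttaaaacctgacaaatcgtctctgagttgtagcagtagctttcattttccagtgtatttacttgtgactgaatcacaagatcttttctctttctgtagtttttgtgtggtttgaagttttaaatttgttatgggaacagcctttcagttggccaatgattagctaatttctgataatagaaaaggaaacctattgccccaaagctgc
Mrc1 holds 3 matches, the nearest beginning at base -35 from the start, Cd53 holds 1 at -39 and Marco 1 at -146. The 250 bases of Cybb hold 0 copies of GAGGAA on either strand, and no other sequence was searched for. Of the 33 members, 25 have at least 1 promoter window in the table, 30 windows in all, and 15 of the 30 hold the core on either strand. Of all 32851 windows of this length, 23.3% hold it. Nothing about binding was measured, and a match describes only the letters.

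C-type lectin receptors recognise sugars on microbes and damaged cells. Clec7a, the receptor for fungal beta-glucan, was at 8.41, 8.19 and 9.19 in null callus and at 8.17, 7.63 and 8.42 in heterozygous callus, differing by 0.52 (SE 0.31). Clec10a, a galactose-binding lectin, was at 8.004, 7.07 and 8.36 against 7.26, 7.45 and 7.34. Null replicate 2 was below all 3 heterozygous values, and the difference was 0.46 (SE 0.32). Clec4n, or dectin-2, was at 9.01, 6.45 and 7.995 against 7.16, 7.18 and 7.39, a difference of 0.58 (SE 0.59) that was -0.021 without null replicate 1. For all 3 lectins the null values were spread more widely than the heterozygous ones, with SDs of 0.52, 0.67 and 1.29 against 0.41, 0.100 and 0.13. With null replicate 3 left out, Clec7a differed by 0.23 and Clec10a by 0.19.

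Receptors for apoptotic cells and for complement-coated particles differed by less than the median of the 33. Axl and Mertk, kinases of the TAM family, were 0.41 (SE 0.25) and 0.36 (SE 0.27) higher in null callus. Axl was brought to 0.13 by leaving out heterozygous replicate 2, and Mertk to 0.085 by leaving out null replicate 1. Fibroblasts also carry Axl, and the 6 fibroblast markers measured, which include Dcn and Lum, were likewise all higher in null callus, by a median of 0.38; their part in the result was not tested. Timd4, a phosphatidylserine receptor, was at 2.96, 4.30 and 2.59 against 3.24, 2.92 and 2.83, and Vsig4, a complement receptor, at 3.53, 3.78 and 4.07 against 3.55, 3.72 and 3.38. The sex-linked transcripts used as a level of silence lay between 1.77 and 3.52. For Timd4 5 of 6 values lay in that range, so no fold is given, and its sign turned to -0.22 without null replicate 2. The other 32 members, Vsig4 among them, had means above 3.52 in both groups. Vsig4 differed by 0.25 (SE 0.17), and by 0.11 without null replicate 3.

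Lysosomal and granule proteins digest what macrophages engulf. Lyz2, the lysozyme of macrophages and neutrophils, was at 12.83, 12.41 and 12.81 in null callus and at 12.25, 11.61 and 12.44 in controls. The lowest null value lay just under the highest heterozygous value, and the difference was 0.58 (SE 0.24, 95% interval 0.0045 to 1.16). Cd68, a lysosomal membrane glycoprotein, differed by 0.42 (SE 0.44), and the proteases Ctss and Lgmn by 0.53 (SE 0.54) and 0.28 (SE 0.48). Laptm5, a lysosomal protein of leukocytes, differed by 0.41 (SE 0.22), with 4 of 5 probe sets higher in null callus, 1 of them in the silent range. Gpnmb, which lipid-laden macrophages and osteoclasts express, was at 9.88, 7.86 and 8.79 against 7.98, 8.08 and 10.03. It was the one member with its highest value in a heterozygous array, and its difference of 0.15 (SE 0.70) turned to -0.37 when null replicate 1 was left out, to -0.21 when heterozygous replicate 1 was, and to -0.16 when heterozygous replicate 2 was. Without null replicate 1 Cd68 gave -0.0100 and Lgmn -0.12, and without heterozygous replicate 2 Lgmn gave -0.054. Lyz2 was at 0.34 and Ctss at 0.15 with heterozygous replicate 2 left out, and Laptm5 at 0.24 with null replicate 1 left out.

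The remaining members are markers of the cell surface and cytoplasm. Cd53, a tetraspanin of leukocytes, had values of 9.84, 9.49 and 9.72 in null callus and of 9.41, 8.75 and 9.21 in controls. The groups did not overlap, and the difference was 0.56 (SE 0.19, 95% interval 0.092 to 1.03), or 1.47-fold. The second probe set of Cd53 lay between 2.24 and 2.93 and differed by 0.034 (SE 0.18), with overlap. Adgre1, which encodes the F4/80 antigen, differed by 0.47 (SE 0.44), and Aif1, an actin-binding protein of macrophages, by 0.31 (SE 0.54). Ms4a7 and Ms4a6d, tetraspan proteins of macrophages and monocytes, differed by 0.35 (SE 0.79) and 0.84 (SE 0.75). Ms4a7 ranged from 7.55 on heterozygous replicate 2 to 10.29 on null replicate 1, a wider spread within each group than the difference between them. Without null replicate 1 Ms4a7 gave -0.30 and Aif1 -0.087, and leaving out heterozygous replicate 2 in its place gave -0.19 and -0.17. Adgre1 was brought to 0.066 by leaving out heterozygous replicate 2, and Ms4a6d to 0.13 by leaving out null replicate 1.

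**Figure D2:**
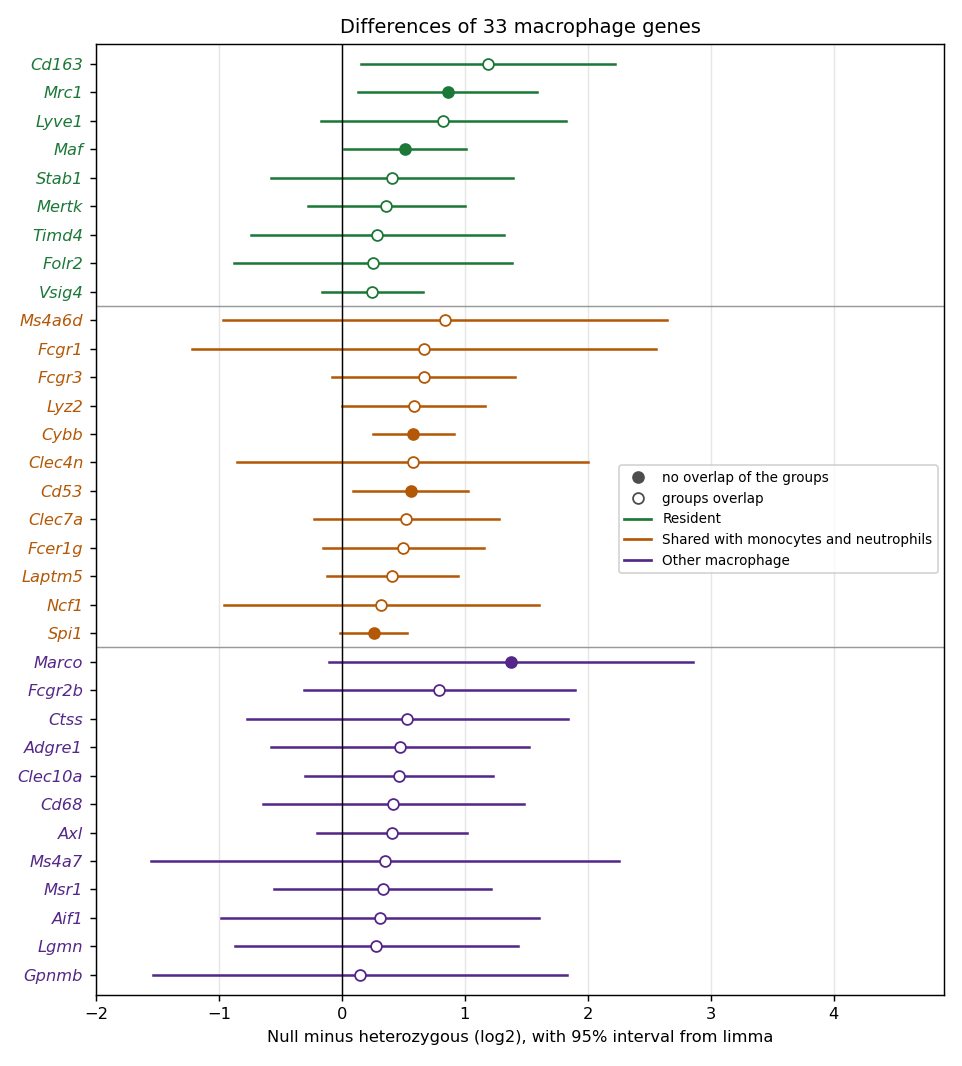
Null minus heterozygous difference of each gene (log2, horizontal axis) with its 95% interval from limma, grouped as resident (green), shared (orange) and other (purple) genes. Filled points are the 6 genes without overlap of the groups. All 33 points lie to the right of 0, and 6 intervals lie wholly above 0.

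For the comparison of resident with monocyte genes, the members were divided by their known cells. The resident list held 9 genes (Mrc1, Cd163, Folr2, Lyve1, Timd4, Stab1, Vsig4, Maf and Mertk), a list shared with monocytes and neutrophils held 12 (Fcgr1, Fcgr3, Fcer1g, Clec4n, Clec7a, Cybb, Ncf1, Spi1, Lyz2, Laptm5, Cd53 and Ms4a6d), and 12 others marked macrophages at large. Median differences were 0.41, 0.57 and 0.41. Relative to each gene's own mean, the resident list had array means of 0.42, 0.039 and 0.37 in null callus and of -0.21, -0.30 and -0.31 in heterozygous callus, so the groups did not overlap. The shared list had 0.64, -0.18 and 0.35 against -0.12, -0.65 and -0.041, and the others had 1.01, -0.48 and 0.21 against -0.31, -0.77 and 0.34. Both of these overlapped. The resident mean minus the shared mean gave -0.22, 0.22 and 0.016 in null and -0.091, 0.35 and -0.27 in controls. The genotypes differed in this quantity by 0.0095, far inside the spread of 0.27 (SD within groups), and it ran from -0.12 with heterozygous replicate 3 left out to 0.19 with heterozygous replicate 2 left out. The median of the resident list was 0.64 without null replicate 2, and that of the shared list was 0.35 when null replicate 1 was left out and 0.34 when heterozygous replicate 2 was. No test was made on these list means, because the members were chosen with results of these arrays known.

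**Figure D3:**
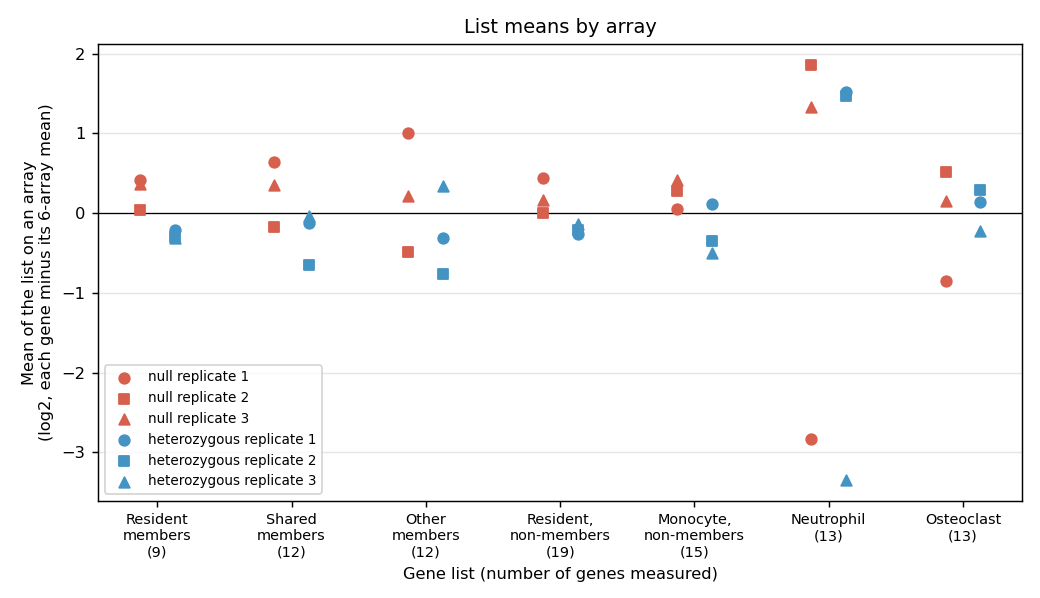
Mean of each gene list on each array (vertical axis, log2, every gene minus its mean over the 6 arrays). Red is null, blue is heterozygous, symbols are replicates 1 to 3, and the number of measured genes stands under each list. The resident members are apart between the groups, the shared and other members overlap, and the neutrophil genes are low on the 2 marrow-poor arrays.

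On average over both, the marrow-poor arrays held more, not less, of most macrophage transcripts. In 26 of the 33 genes their mean exceeded the mean of the other 4 arrays, against 48.3% of all genes, and the median gap was 0.61. The gap was widest for Ms4a7 (1.90), Gpnmb (1.78), Ms4a6d (1.75) and Fcgr1 (1.69). By this mean, all 12 genes of the macrophage list at large, 10 of the 12 shared genes and 4 of the 9 resident genes were higher on these arrays. The mean can hide a split between the 2. Marco had its highest value of all on null replicate 1 (6.57) and its lowest on heterozygous replicate 3 (3.19). Ncf1 (-1.41) and Lyve1 (-1.07) had the widest gaps in the other direction, and Cybb (0.013) and Spi1 (-0.061) were level. Between the 2 marrow-poor arrays, null exceeded heterozygous in 30 of 33 genes with a median of 0.57, against 54.9% of all genes. Among the other 4 arrays, 33 of 33 were higher in null callus with a median of 0.39, against 46.9% of all genes. These values compare 1 array with 1 and 2 with 2, and the arrays were set apart by their neutrophil and erythroid genes, so no test is given.

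**Figure D4:**
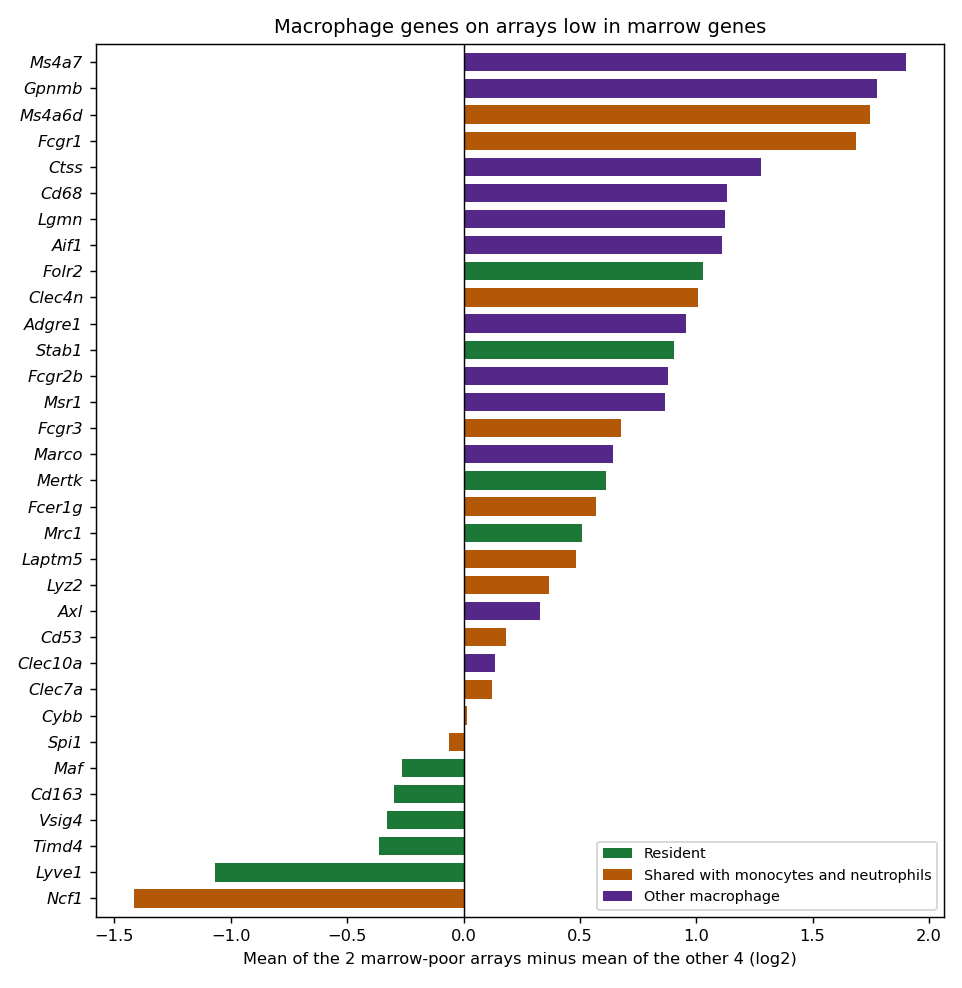
Mean of the 2 marrow-poor arrays minus the mean of the other 4 (log2, horizontal axis) for each gene, ordered by size, with green for resident, orange for shared and purple for other genes. Bars start at 0, and 26 of 33 point to the right, from Cybb at 0.013 to Ms4a7 at 1.90.

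Genes of the same cells and pathways that are not among the 33 had the same direction more often than the other. Of 19 further genes of resident macrophages, 17 were higher in null callus (median 0.42), against 49.6% of all genes. At an unadjusted p under 0.05 in limma stood 3 that were higher and 1 that was lower in null callus. Over all genes, 2.06% stood there with the null group higher. Pf4, a chemokine of platelets and resident macrophages, was 0.90 (SE 0.35) higher, and Slc40a1, the iron exporter ferroportin, was 0.80 (SE 0.29) higher. Nr1h3, the liver X receptor alpha, went the other way, at 4.73, 5.44 and 5.33 in null callus and at 6.02, 5.80 and 5.60 in heterozygous callus (-0.64, SE 0.22). Its groups did not overlap, and its unadjusted p in limma, 0.024, was the lowest of this list. All 15 further monocyte genes were higher in null callus (median 0.54). This count includes a gene with group means of 3.16 and 2.98, within the range of silent transcripts (up to 3.52). F13a1, a transglutaminase of monocytes, was at 10.19, 9.45 and 9.94 against 9.19, 9.13 and 8.85, and Vcan, the proteoglycan versican, at 7.53, 7.17 and 7.48 against 6.69, 6.19 and 6.92. Both were apart between the groups (0.80 and 0.79, each with SE 0.21), while Ccr2, the receptor that brings monocytes out of marrow, differed by 0.071 (SE 0.27). Whether the RNA of F13a1 and Vcan came from monocytes was not tested. Of 26 genes of uptake and receptor signalling 23 were higher (median 0.29), among them the kinase Syk (0.46, SE 0.15), the engulfment protein Elmo1 (0.29, SE 0.11) and Cd47 (0.40, SE 0.15), which signals against engulfment, each without overlap. Of 14 further lysosomal genes 11 were higher (median 0.24). Higher in null callus without overlap were 3 of the 19 resident genes and 2 of the 15 monocyte genes. The same held for 4 of the 26 uptake and signalling genes and 0 of the 14 lysosomal genes, against 4.14% of all genes. No gene of these lists passed limma's test after adjustment over all probe sets.

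Lists of other cell types gave these values beside the macrophage genes. Osteoclast markers were lower in null callus in 9 of 13 genes (median -0.13), with the phosphatase Acp5 at 8.43, 10.64 and 9.78 against 9.94, 10.08 and 10.12. Their list mean was lowest, at -0.86, on null replicate 1, where most macrophage genes were highest. Mast cell markers were higher in all 6 genes (median 0.40), with Cpa3, Cma1 and Mcpt4 apart between the groups, and mast cells carry Fcer1g too. Neutrophil markers were higher in 11 of 13 genes (median 0.24), but their list mean ranged from -2.83 to 1.86 in null and from -3.34 to 1.52 in heterozygous callus. Endothelial markers were higher in 6 of 6 (median 0.26) and dendritic cell markers in 7 of 8 (median 0.12), and T and B cell markers in 4 of 6 (median 0.11). Fibroblast markers were higher in 6 of 6 (median 0.38). Bone, cartilage, skeletal muscle and erythroid markers lay more often the other way. Bone markers were lower in null callus in 5 of 6 genes (median -0.24), cartilage markers in 5 of 6 (median -0.23), skeletal muscle markers in 6 of 6 (median -0.11) and erythroid markers in 5 of 7 (median -0.26). Single cartilage markers differed by far more than that median. Col10a1 was at -2.21 (SE 1.10) and Col2a1 at -1.11 (SE 0.55), with overlap, while Acan went the other way at 0.63 (SE 0.36). Ibsp, a bone matrix sialoprotein, was at 9.46, 9.59 and 9.84 against 10.44, 10.12 and 10.01 (-0.56, SE 0.16). Alpl, the phosphatase of mineralising cells, was at 7.92, 8.01 and 7.87 against 8.35, 8.16 and 8.26 (-0.32, SE 0.10). Both were apart between the groups, though neither passed limma's test after adjustment. The part of these other cell types in the differences of the macrophage genes was not tested.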

How the data were processed

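Per the labels' protocols, callus RNA was run on Affymetrix mouse expression arrays. The deposited table holds 1 value per probe set and array, taken to be log2 from its range (1.65 to 14.49). The authors' method of correction and normalisation is not stated in these sources, and the nearly equal array distributions mean that a shift of all genes would not be seen. Of 45101 probe sets 64 controls were left out, and of the rest 34945 have 1 symbol, 932 several and 9160 none. All 45037 were fitted with limma 3.58.1 in R 4.3.3 (lmFit, eBayes, 4 residual and 2.50 prior degrees of freedom, two-sided) on all 6 arrays without covariates, with Benjamini-Hochberg adjustment and a threshold of 0.05. Differences are null minus heterozygous. The script was tested on simulated data.

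The members and lists, and the alternatives, were chosen with earlier results of these data known. All members are named, and of other lists up to 3 genes with the lowest unadjusted p, plus genes that define a cell type. Col1a1, Acta1, Matn1, Ccr2, Acp5, Dcn and Lum were named as such. Some genes sought in those lists are not analysed here. The silent level from sex-linked probe sets was chosen after values were seen. No litter, batch or scan date was given, and no pairing of the arrays.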

Additional observations from a re-analysis of the deposited data

How the results depend on the processing

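No member passed limma's test under any of the 16 other settings, and 21 of the 33 kept their direction in each that gave them a value. No member turned under quantile normalisation, weighting of the arrays, the mean over a gene's probe sets, or without both marrow-poor arrays. The same held for 3 settings that could hardly turn a member. A robust prior with an intensity trend changes only the variances and leaves the differences as they are. Median centring moved little, since the array medians lay between 4.55 and 4.59 and the smallest member difference was 0.15. The marrow score as a covariate was nearly balanced between the groups, with 1 marrow-poor array in each. The filter at the median level left 30 members, all higher in null callus. With the marrow score as a covariate 1 probe set, not of a member, passed. Without both arrays with high Xist the resident median was 0.57, which is the value of Timd4, a gene mostly in the silent range. In that setting 8 members turned: Cd68 (-0.15), Msr1 (-0.0012), Ms4a7 (-0.38), Clec4n (-0.065), Folr2 (-0.25), Stab1 (-0.11), Gpnmb (-0.73) and Lgmn (-0.13). Leaving out each array in turn gave ranges of 0.33 to 0.64 for the resident median, -0.0100 to 0.74 for Cd68, -0.035 to 0.55 for Msr1, -0.17 to 0.71 for Aif1, -0.30 to 0.99 for Ms4a7, -0.021 to 1.26 for Clec4n, -0.14 to 0.73 for Folr2, -0.37 to 0.81 for Gpnmb, -0.12 to 0.67 for Lgmn, -0.22 to 0.64 for Timd4, -0.056 to 1.18 for Fcgr1 and -0.16 to 0.78 for Ncf1. The cause was not tested. No paired analysis was possible because the labels give no replicate numbers. With 3 arrays a group, the standard errors of members ran from 0.11 to 0.79, so differences of the median size were not detectable for many of them. Weak signals limit Timd4, Vsig4 and Marco, whose mean over all 6 arrays lies under the median level of all probe sets (4.58).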

Other observations

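The probe sets of a gene agreed in direction for 12 of the 15 members with several, and 60 of all 63 member probe sets were higher in null callus. These counts include probe sets in the silent range (up to 3.52), whose direction says little. Examples are a probe set of Fcgr2b (group means 2.34 and 2.22) and the second probe set of Axl (2.44 and 2.40). The 3 that were lower (1 each of Maf, Ms4a6d and Laptm5) differed by -0.07, -0.05 and -0.07, and that of Ms4a6d also lay in the silent range.

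Among the further genes of resident macrophages, the complement component genes C1qa, C1qb and C1qc followed the array pattern of Ms4a7, with C1qb at 11.94, 9.94 and 10.92 in null and at 10.31, 9.49 and 11.32 in heterozygous callus. Hmox1, the haem oxygenase that degrades haem taken up by macrophages, was at 8.74, 6.48 and 6.36 against 5.19, 6.32 and 6.81, a difference of 1.09 (SE 0.72) in which null replicate 1 stood highest and heterozygous replicate 1 lowest. These genes were chosen after their values were seen.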
